A study of Mus musculus with 3 samples.

Results

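The genes of metallothionein and zinc handling described here are Mt1 and Mt2, which encode metallothioneins, Mtf1, which encodes a metal-sensing transcription factor, and Slc30a1, which encodes the plasma membrane zinc exporter ZnT1. They are 4 of the 18738 genes in the count tables. They were selected on how their UMIs spread over cell types in these same tables, so their levels and fold differences between cell types are given as a description and were not tested. The samples are 3 cryopreserved lots (26, 29 and 30) of fetal ovarian somatic cells (FOSCs) from E12.5 CD1 mouse ovaries. Each lot pools the embryos of 10 pregnant females, and the 3 pools are the replicates (n = 3 lots). All lots are CD1 cells of 1 condition: the mesonephros was removed, the ovaries were digested with trypsin, germ and endothelial cells were depleted with SSEA1 and CD31 antibodies on magnetic columns, and the cells were frozen and profiled on thaw by 10X Genomics scRNA-seq. The labels name no treatment, so the question is how these transcripts were spread over the cells of the lots.

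Metallothioneins are small cysteine-rich proteins that bind zinc and copper and buffer their free level in the cell. When zinc rises, MTF1 binds short metal response elements in the promoters of Mt1, Mt2 and Slc30a1 and raises their transcription, and ZnT1 then moves zinc out of the cell. Transcription of Mt1 and Mt2 is also raised by glucocorticoids, oxidative stress and heat, and zinc itself is known for its part in oocyte maturation.

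Mt1 and Mt2 lie side by side on mouse chromosome 8. In GENCODE vM21 on GRCm38, Mt2 (ENSMUSG00000031762) spans chr8:94172664-94173568 and Mt1 (ENSMUSG00000031765) spans chr8:94179082-94180327, both on the plus strand, with 5513 bases between the end of Mt2 and the start of Mt1. Mtf1 (ENSMUSG00000028890) spans chr4:124802104-124849800 and Slc30a1 (ENSMUSG00000037434) spans chr1:191906767-191913247, also on the plus strand. The longest run of bases that the annotated transcripts of Mt1 and Mt2 have in common is 20, so reads of these paralogs can mostly be told apart. Mtf1 overlaps 1110065P20Rik on the other strand, which held 81378 UMIs in the kept cells. Mt2 and Slc30a1 overlap antisense genes that are not in the tables. Whether the counting used strand is not given in the sources used here, so reads of an overlapping gene could be among those of these 3 genes.

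The bases before an annotated start of each gene are shown because MTF1 is known to act through short sequences in promoters. The RefSeq promoter table for GRCm38.p6 matched all 4 genes. The 250 bases before the RefSeq start are printed 5′ to 3′ on the plus strand for Mt1 (chr8:94178839-94179088), Mt2 (chr8:94172368-94172617) and Slc30a1 (chr1:191906531-191906780), and capitals mark matches to the metal response element cores TGCACNC and TGCGCNC on either strand.
Mt1: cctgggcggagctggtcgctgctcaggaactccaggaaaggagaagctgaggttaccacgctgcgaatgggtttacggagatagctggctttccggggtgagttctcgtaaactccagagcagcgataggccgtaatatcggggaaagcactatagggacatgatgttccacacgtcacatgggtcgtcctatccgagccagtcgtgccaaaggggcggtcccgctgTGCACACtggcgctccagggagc
Mt2: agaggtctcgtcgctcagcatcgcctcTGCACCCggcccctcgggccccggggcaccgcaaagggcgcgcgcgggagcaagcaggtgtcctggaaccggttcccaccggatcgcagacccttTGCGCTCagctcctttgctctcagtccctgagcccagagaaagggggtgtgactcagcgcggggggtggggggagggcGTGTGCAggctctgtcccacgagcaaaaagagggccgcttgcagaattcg
Slc30a1: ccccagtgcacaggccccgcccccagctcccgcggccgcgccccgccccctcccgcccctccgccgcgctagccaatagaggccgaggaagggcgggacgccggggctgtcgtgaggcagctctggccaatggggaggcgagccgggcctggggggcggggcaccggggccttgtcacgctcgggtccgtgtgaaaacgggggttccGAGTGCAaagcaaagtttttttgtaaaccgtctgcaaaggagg

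In windows of 300 bases (250 before and 50 after the start), Mt1 held 3 such matches, Mt2 held 4, Slc30a1 held 2 and Mtf1 held 0. Among 32817 distinct promoter windows, 25.7% held at least 1 match, 7.12% at least 2, 1.97% at least 3 and 0.518% at least 4. The match of Mt1 before its start is TGCACAC, which begins 23 bases upstream, and its other matches begin 3 and 21 bases downstream. The matches of Mt2 that lie before the start begin 223, 128 and 50 bases upstream, the last of them on the minus strand. Mt3 and Mt4, the other metallothionein genes of this cluster, held 1 match each. Positions and counts refer to 1 RefSeq start per gene. In GENCODE vM21 the first and last transcript starts lie 159 bases apart for Mt1, 196 for Mt2, 574 for Mtf1 and 489 for Slc30a1. Sequence near other starts can therefore lie outside these windows, and the counts need not cover the promoter in use. These are matches of letters in a window and not measured binding.

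The filters of the study (200 to 9000 genes and at most 10% mitochondrial UMIs) kept 9711 of 9763 barcodes in lot 26, 8553 of 8567 in lot 29 and 10707 of 10773 in lot 30. Median depth per kept cell was 11126, 8949 and 11595 UMIs, so lot 29 was the shallowest. Between 19 and 30 kept barcodes occurred in both lots of a pair. Clustering gave 21 clusters, with the 4 genes and all other listed genes left out of the variable genes. They were named from marker lists as pre-granulosa-like (11862 cells), stromal-like (6125), epithelial-like (6124), germ-like (1472), Sertoli-like (391), endothelial-like (348) and red-blood-cell-like (77). Among the named classes, 7 of 8 pre-granulosa, 8 of 8 stromal, 7 of 7 epithelial, 8 of 8 germ, 8 of 8 endothelial, 6 of 6 Sertoli and 7 of 7 red blood cell markers had their highest mean in the class named for them. The exception was the pre-granulosa marker Wnt6. The same markers gave the names, so these counts are a description and no separate check. The other 2572 cells, in 7 clusters, were left unnamed. One of these, cluster 10, held Wnt4 at a mean of 1100 CPM, above the pre-granulosa-like clusters 0 (516.5 CPM) and 1 (740.2 CPM). Sertoli-like cells numbered 90, 285 and 16 in lots 26, 29 and 30, so lot 29 held most of them. The paper describes Sertoli cells as a contaminant found in all lots and did not analyze them further. They are kept here as a class and in the fit, and are not read as cells of the ovary.

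Mt1 was by far the most counted of the 4 genes. It had 145783 UMIs in the kept cells and at least 1 UMI in 62.8% of them, with up to 200 UMIs in a cell. Mt2 had 19302 UMIs in 21.1% of the cells, Mtf1 7430 in 21.6% and Slc30a1 2541 in 7.85%. The cells of each class were added up lot by lot, and a level is a gene's UMIs per 1000000 UMIs of that sum (CPM), with the mean ± SD over lots.

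Mt1 was high in pre-granulosa-like and epithelial-like cells and low in stromal-like, endothelial-like and germ-like cells. In pre-granulosa-like cells Mt1 was at 562, 518 and 647 CPM in lots 26, 29 and 30, a mean of 576 ± 65.6 (SD, n = 3). In epithelial-like cells it was at 647, 430 and 574 CPM (550 ± 111). The ranges of these classes overlapped, and their order differed between lots. Sertoli-like cells followed with 397, 407 and 211 CPM (338 ± 111), where lot 30 rests on 57 UMIs from 16 cells. Red-blood-cell-like cells held 157, 324 and 449 CPM (310 ± 146), from 20, 36 and 21 cells, and overlapped with Sertoli-like cells. Stromal-like cells held 89.8, 74.5 and 130 CPM (98.2 ± 28.8), and within each lot this was lower than in pre-granulosa-like cells by a mean of 6.00-fold. Endothelial-like cells held 69.3, 80.8 and 102 CPM (84.1 ± 16.7). Germ-like cells held 76.8, 39.5 and 77.3 CPM (64.5 ± 21.7), a mean of 9.30-fold less than pre-granulosa-like cells of the same lot. The lowest lot of epithelial-like cells was above the highest lot of Sertoli-like cells, and every lot of these upper classes was above every lot of the stromal-like, endothelial-like and germ-like classes, which overlapped one another.

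Mt2 had a different leader. It was highest in epithelial-like cells, at 134, 72.1 and 94.1 CPM in lots 26, 29 and 30 (SD 31.3), and within each lot this was a mean of 1.74-fold above pre-granulosa-like cells. Pre-granulosa-like cells held 70.3, 46.1 and 52.8 CPM (a mean of 56.4), and Sertoli-like cells 73.0, 69.9 and 73.9 CPM (72.3 ± 2.06). These 3 classes overlapped with the next in order over lots, although in every lot epithelial-like cells were above pre-granulosa-like cells. Red-blood-cell-like cells came next, at 54.1, 55.7 and 14.4 CPM from 10, 21 and 4 UMIs. Stromal-like cells held 8.36, 5.77 and 8.80 CPM (7.64 ± 1.64), a mean of 12.9-fold below epithelial-like cells and 7.38-fold below pre-granulosa-like cells. Endothelial-like cells were as low, at 5.72, 9.70 and 12.1 CPM. Germ-like cells stood between these groups with 30.0, 27.3 and 22.2 CPM (26.5 ± 3.98), which did not overlap with the stromal-like or endothelial-like lots. Germ-like cells thus held a mean of 3.5-fold more Mt2 than stromal-like cells, while their Mt1 was 1.55-fold lower.

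**Figure D1:**
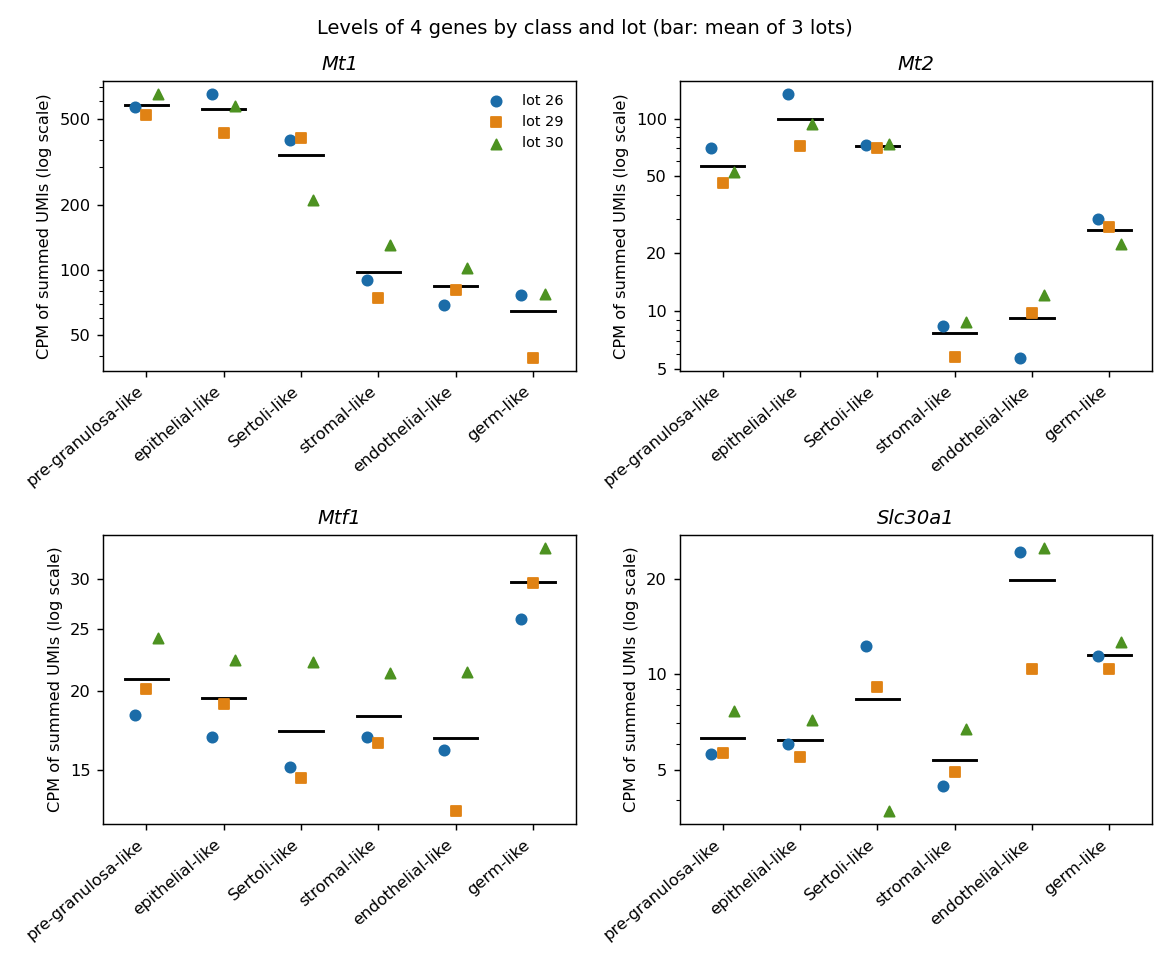
Each panel plots 1 gene, with the class on the x axis and CPM of the summed UMIs on the y axis (log scale). Points are the 3 lots and bars are their means. Mt1 and Mt2 separate pre-granulosa-like, epithelial-like and Sertoli-like cells from stromal-like and endothelial-like cells, the germ-like lots lead for Mtf1, and the endothelial-like class has the highest mean of Slc30a1 (19.9 CPM).

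The ratio of Mt1 to Mt2 UMIs also differed between classes. It was 8.0, 11.2 and 12.3 in pre-granulosa-like cells of lots 26, 29 and 30 and 10.8, 12.9 and 14.8 in stromal-like cells. Epithelial-like cells had 4.83, 5.96 and 6.10 Mt1 UMIs per Mt2 UMI, and germ-like cells 2.56, 1.44 and 3.49. The epithelial-like lots lay below the pre-granulosa-like lots, and the germ-like lots lay below both. These ratios count all UMIs of a class, and the part of RNA from other cells in them was not tested.

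Low levels in a class can include RNA of other cells, so the 8 pre-granulosa markers (Wnt4, Wnt6, Foxl2, Kitl, Irx3, Fst, Bmp2 and Gng13) were measured beside the metallothioneins. In germ-like cells the summed level of these markers was 460, 230 and 401 CPM, against 5040, 4672 and 4395 CPM in pre-granulosa-like cells. As a share of the pre-granulosa-like level, the single markers ran up to 0.117, 0.0763 and 0.112 in germ-like cells of the 3 lots. The same ratio for Mt1 was 0.137, 0.0762 and 0.119, close to the highest of these markers. For Mt2 it was 0.427, 0.593 and 0.420, well above all 8 markers in every lot. In stromal-like cells the ratio of Mt1 was 0.160, 0.144 and 0.201 and that of Mt2 was 0.119, 0.125 and 0.167. Both lay inside the range of the markers in each lot, whose medians were 0.126, 0.0865 and 0.142. Mt1 was above the median in every lot, and Mt2 in lots 29 and 30. The top of this range was Wnt4 (0.493, 0.369 and 0.381), which stromal-like cluster 9 held at a mean of 530.8 CPM. That is above the 516.5 CPM of pre-granulosa-like cluster 0, so the range is no gauge of RNA from other cells alone. In endothelial-like cells the ratios of Mt1 (0.123, 0.156 and 0.158) and of Mt2 (0.0814, 0.210 and 0.230) also lay inside the range of the markers. There the highest markers were Kitl in lot 26 (0.334) and Bmp2 in lots 29 and 30 (0.272 and 0.504). The part of free RNA and of doublets in these low levels was not tested. The levels were read neither as expression by stromal-like or endothelial-like cells nor as free RNA. In epithelial-like cells the markers ran up to 0.551, 0.50 and 0.581, while the ratio of Mt1 was 1.15, 0.829 and 0.887 and that of Mt2 was 1.91, 1.56 and 1.78. Removing the cells that Scrublet called doublets lowered the mean Mt1 level of endothelial-like cells from 84.1 to 44.2 CPM and their Mt2 level from 9.19 to 5.56 CPM, and the Mt1 level of germ-like cells from 64.5 to 46.1 CPM.

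Within the large classes the metallothioneins differed between clusters. Pre-granulosa-like cells formed 2 clusters. Cluster 0, led by genes such as Gng13, Cst12 and Ly6d, held Mt1 at 715, 650 and 754 CPM in lots 26, 29 and 30. Cluster 1, led by genes such as Fst and Irx3, held 311, 266 and 519 CPM. The mean difference within lots was 2.01-fold for Mt1 and 3.69-fold for Mt2 (98.5, 63.2 and 72.9 CPM in cluster 0 against 23.6, 13.4 and 28.6 CPM in cluster 1). The clusters did not overlap over lots for either gene. Mt3, the paralog named for its role in brain, went the other way, with 20.1, 16.3 and 10.9 CPM in cluster 0 and 73.0, 48.2 and 44.9 CPM in cluster 1. Mtf1 and Slc30a1 differed little between these clusters, by a mean of 1.15-fold and 1.14-fold, both lower in cluster 0.

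Epithelial-like cells formed 4 clusters, with mean Mt1 of 137 to 910 CPM. Cluster 4, led by genes such as Hsd17b2, Krt7, Upk3b and Mt2 itself, held Mt1 at 1075, 810 and 845 CPM and Mt2 at 242, 142 and 146 CPM. Cluster 8, led by Krt19, Lrrn4 and Upk3b, held Mt1 at 160, 98.8 and 151 CPM and Mt2 at 27.9, 12.2 and 22.0 CPM. This was a mean of 6.75-fold less Mt1 and 8.76-fold less Mt2 within lots. The other epithelial-like clusters were led by cell cycle genes and lay between these, with mean Mt1 of 407 CPM in cluster 5 and 613 CPM in cluster 7. Both cluster 4 and cluster 8 held epithelial markers, with a summed level over the 7 genes of 737, 570 and 577 CPM in cluster 4 and 953, 825 and 922 CPM in cluster 8. The pre-granulosa markers moved with the metallothioneins here, at a summed 1841, 1438 and 1590 CPM in cluster 4 and 466, 398 and 479 CPM in cluster 8. Mt1 in cluster 4 was above the pre-granulosa-like level of the same lot by 1.91-, 1.56- and 1.31-fold, and Mt2 by 3.45-, 3.08- and 2.77-fold. When clusters were named only from genes that the study names for its clusters, clusters 4, 5 and 7 were left unnamed, and the epithelial-like class was then cluster 8 alone, with a mean of 137 CPM of Mt1 and 20.7 CPM of Mt2. The high metallothionein level of the epithelial-like class therefore rests on clusters 4, 5 and 7.

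Among stromal-like clusters Mt1 was lowest in cluster 9, led by Ntrk2, Lum and Penk, at 31.1, 33.7 and 54.3 CPM. The other stromal-like clusters had means of 96.4 to 116 CPM. The highest mean Mt1 level of any cluster was in the unnamed cluster 18, whose 135 cells (68, 21 and 46 in lots 26, 29 and 30) were led by myeloid genes such as S100a8, Camp, Lyz2 and C1qa. It held 857, 1023 and 1512 CPM of Mt1, the first of these below cluster 4 of lot 26, and 77.4, 143 and 114 CPM of Mt2. Among the other unnamed clusters, cluster 15 had a mean of 382 CPM of Mt1, cluster 10 172 CPM, and cluster 13, led by Insl3 and Cyp17a1, 98.2 CPM. Cluster 13 had 123, 250 and 34 cells in lots 26, 29 and 30, the same order over lots as the Sertoli-like cells. Whether its cells came from ovary or testis was not tested. In cluster 19, led by Chgb and Th, Mt1 ranged from 82.0 to 474 CPM over lots of 22 to 65 cells.

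**Figure D2:**
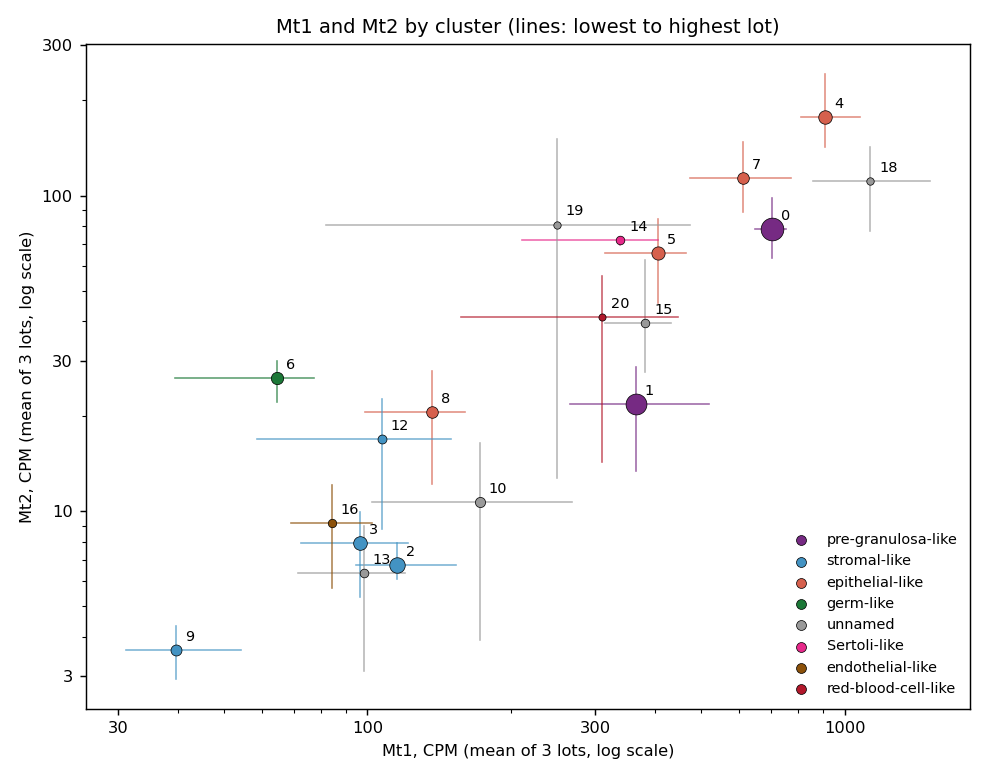
Each point is 1 cluster, with mean Mt1 CPM on the x axis and mean Mt2 CPM on the y axis (both log scale), and its lines run from the lowest to the highest lot. Numbers are cluster numbers, colours are classes and point size grows with the number of cells. Clusters 11 and 17, with medians of 2708 and 2584 UMIs per cell, are not drawn. Epithelial-like clusters run from cluster 8 (137 CPM of Mt1) to cluster 4 (910 CPM), and the germ-like cluster 6 lies above the other clusters of low Mt1.

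Mt1 was spread unevenly over the cells of a class. To compare cells of equal depth, each cell was thinned to 4000 UMIs, and shallower cells were left out. In pre-granulosa-like cells, 42.4%, 45.3% and 37.1% of cells in lots 26, 29 and 30 then had 0 Mt1 UMIs, while 4.44%, 3.9% and 5.54% had 10 or more. The 10% of cells with the most Mt1 held 51.5%, 52.2% and 46.8% of all Mt1 UMIs. In epithelial-like cells 45.7%, 58.9% and 45.5% had 0 and the top 10% held 55.3%, 63.6% and 53.3%. With UMIs scattered at random over cells of this depth, a class with the mean of pre-granulosa-like cells would have 0 in only 12.2%, 14.2% and 8.32% of cells. More cells than that had 0, so the transcripts were concentrated in a part of each class.

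Few other genes were this uneven. Overdispersion (the squared variation beyond random counting) of Mt1 in pre-granulosa-like cells was 2.73, 3.06 and 2.09, where the median of the genes with a mean of at least 1 UMI was 0.0572, 0.0579 and 0.0634. Mt1 ranked 2 of 531 genes in lot 26, behind Cst12, and 1 of 554 and 1 of 548 in lots 29 and 30. In epithelial-like cells it ranked 6 of 566, 1 of 601 and 6 of 581, and the genes above it included Itm2a, Gng13 and histone genes. Within cluster 0 alone the top 10% of cells held 46.8%, 46.7% and 42.4% of the Mt1 UMIs. Without thinning, the shares of pre-granulosa-like cells with at least 1 Mt1 UMI were 74.9%, 67.8% and 80.6%, at median depths of 10629, 8308 and 11219 UMIs. As a gauge of free RNA, Hba-a1, the adult alpha-globin of red blood cells, was found in 8.95%, 14.9% and 10.0% of the thinned pre-granulosa-like cells, at 28.8, 41.1 and 25.5 CPM.

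**Figure D3:**
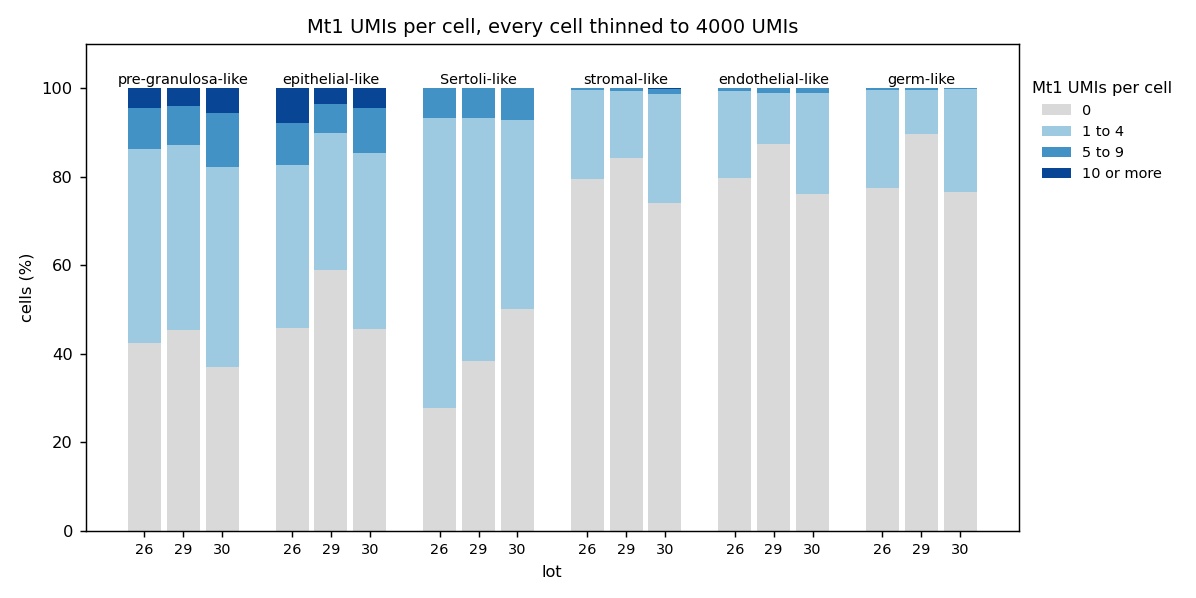
Stacked bars give the percent of cells (y axis) with 0, 1 to 4, 5 to 9 and 10 or more Mt1 UMIs, for each class and lot (x axis), with every cell thinned to 4000 UMIs. Cells with 10 or more Mt1 UMIs make up 3.53% to 7.89% of epithelial-like lots and 3.9% to 5.54% of pre-granulosa-like lots, and none of the thinned germ-like cells.

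In pre-granulosa-like and epithelial-like cells, those rich in Mt1 had Mt2 more often. Among thinned pre-granulosa-like cells of lot 26, Mt2 was found in 3.76% of cells with 0 Mt1 UMIs (exact Clopper-Pearson 95% interval 2.91% to 4.78%), 14.5% of cells with 1 to 4, 38.3% of cells with 5 to 9 and 71.3% of cells with 10 or more (64.1% to 77.9%). The shares ran from 3.19% to 59.1% in lot 29 and from 3.44% to 52.8% in lot 30. In epithelial-like cells they ran from 4.81% to 85.3%, from 3.38% to 85.9% and from 5.63% to 81.2%. The step up with Mt1 was thus seen in all 3 lots of both classes. Many cells with Mt2 still had few Mt1 UMIs: in pre-granulosa-like cells of lot 26 they numbered 64, 254, 144 and 127 from the lowest bin to the highest. Each class pools clusters that differ in both genes, and the shares within a cluster were not computed. The intervals cover counting error only.

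In germ-like cells the share with Mt2 was 7.63%, 9.97% and 8.90% in cells with 0 Mt1 UMIs and 6.06%, 14.7% and 8.99% in cells with 1 to 4, with overlapping intervals in every lot. Too few germ-like cells had 5 to 9 Mt1 UMIs to give a share: lot 26 had 3 such cells, all with Mt2, lot 29 had 1 without it and lot 30 had 1 with it. The Pearson correlation of Mt1 and Mt2 over thinned cells was 0.47, 0.41 and 0.38 in the pre-granulosa-like class, 0.64, 0.60 and 0.54 in the epithelial-like class, and 0.04, 0.06 and 0.03 in germ-like cells. These are descriptions over the cells of 1 lot, which share a library. The correlations of Mtf1 and Slc30a1 with Mt1 were between -0.02 and 0.04 in pre-granulosa-like and epithelial-like cells. Slc30a1 was found in 2.41%, 1.97% and 2.73% of pre-granulosa-like cells with 0 Mt1 UMIs and in 1.69%, 7.09% and 5.16% of those with 10 or more, and the intervals were apart in lot 29 (1.32% to 2.81% against 3.29% to 13.0%). In epithelial-like cells the shares were 1.87%, 1.86% and 2.68% against 3.88%, 5.63% and 2.68%, with overlapping intervals in each lot. The correlation of Mt1 with the summed heat shock genes was -0.01 to 0.02 in pre-granulosa-like and 0.03 to 0.17 in epithelial-like cells, and that with the mitochondrial share was -0.05 to -0.03 and 0.02 to 0.06. The log2 total UMIs of a cell before thinning correlated with its thinned Mt1 at 0.17 to 0.19.

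**Figure D4:**
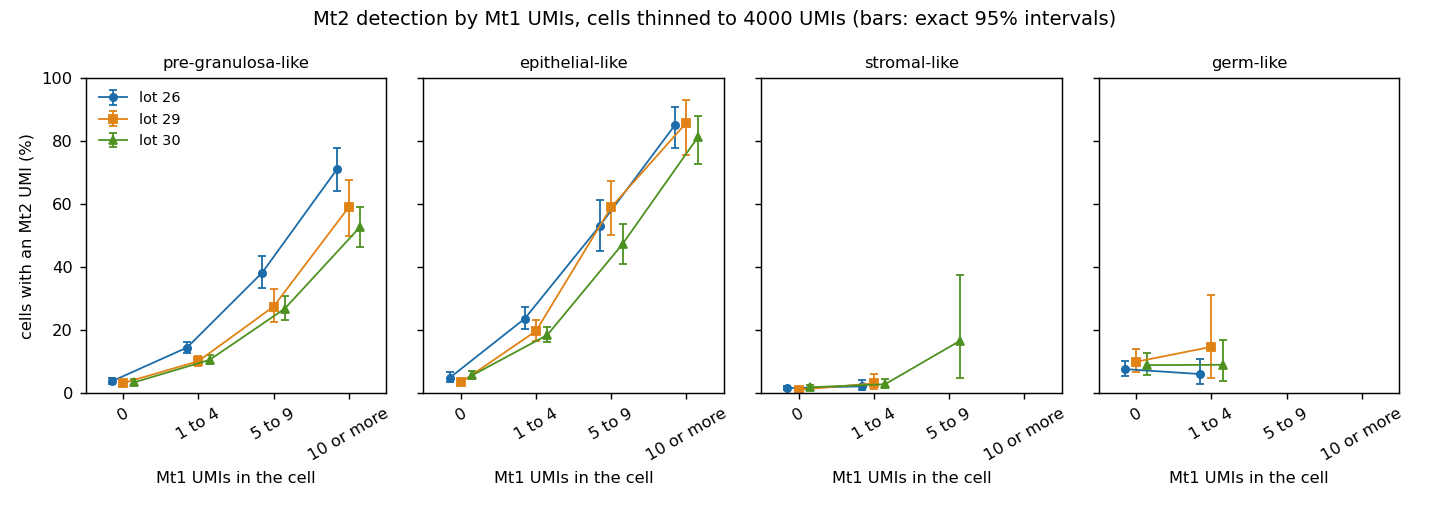
Each panel is 1 class, with cells binned by Mt1 UMIs (x axis) and the percent of cells in the bin with an Mt2 UMI (y axis). Points are lots, bars are exact 95% intervals, and bins under 20 cells are not drawn. The share climbs to between 52.8% and 85.9% in the highest bin of pre-granulosa-like and epithelial-like cells and is at most 14.7% in the germ-like bins drawn.

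Mtf1, the metal sensor, was found at similar levels in all large classes. It was highest in germ-like cells, at 25.9, 29.5 and 33.5 CPM in lots 26, 29 and 30 (29.7 ± 3.83). Pre-granulosa-like cells held 18.3, 20.1 and 24.2 CPM (20.9 ± 3.01), so the germ-like lots lay above them without overlap, by a mean of 1.42-fold within lots. Epithelial-like (19.5 ± 2.75), stromal-like (18.3 ± 2.66), Sertoli-like (17.3 ± 4.21) and endothelial-like cells (16.8 ± 4.30) overlapped with one another and with pre-granulosa-like cells. Mtf1 therefore had no more than a small part of the span of Mt1: its highest and lowest means among the 5 largest classes differed by 0.82 on the log2 scale, against 3.16 for Mt1.

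Slc30a1, the zinc exporter, had its highest mean among the named classes in endothelial-like cells, which the antibodies had depleted. They held 24.2, 10.3 and 25 CPM in lots 26, 29 and 30, from 72, 16 and 35 UMIs, with a mean of 19.9 ± 8.25. Lot 29 stood apart, at the level of its germ-like cells. Germ-like cells were next and even, at 11.4, 10.4 and 12.6 CPM (11.5 ± 1.11). Pre-granulosa-like cells held 5.59, 5.64 and 7.67 CPM (6.30 ± 1.19), and epithelial-like (6.22 ± 0.880) and stromal-like cells (5.35 ± 1.2) overlapped with them. Within lots Slc30a1 was a mean of 3.5-fold higher in endothelial-like than in stromal-like cells and 1.83-fold higher in germ-like than in pre-granulosa-like cells. At 4000 UMIs a cell, 11%, 3.45% and 11.9% of endothelial-like cells had a Slc30a1 UMI, against 2.24%, 2.31% and 2.75% of pre-granulosa-like cells. In germ-like cells the shares were 4.56%, 3.27% and 2.36%, so those of lot 30 were below the pre-granulosa-like share. Among the named classes, those with the most Mt1 were thus not those with the most Slc30a1.

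The lots differed in handling-related genes, and the metallothioneins varied with the lot too. Hspa1a, an inducible heat shock gene, was at 103, 95.2 and 508 CPM in pre-granulosa-like cells of lots 26, 29 and 30, and Fos, an immediate early gene, at 944, 1260 and 2143 CPM. Mt1 was highest in lot 30 in pre-granulosa-like, stromal-like and germ-like cells and highest in lot 26 in epithelial-like cells, and lot 29 was lowest in all 4. The log2 range of Mt1 over lots was 0.32 in pre-granulosa-like, 0.59 in epithelial-like, 0.81 in stromal-like and 0.97 in germ-like cells. In stromal-like cells the median gene at 5 CPM or more had a range of 0.22, and 2.42% of 10172 genes had a larger range than Mt1. For Mt2 the range was widest in epithelial-like cells (0.89, exceeded by 1.67% of 9925 genes). The part of the state of a lot at thaw in these levels was not tested.

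Over the 21 sums of 7 classes and 3 lots, the genes whose log2(CPM + 1) was most like that of Mt1 were Fah, the last enzyme of tyrosine breakdown (Pearson r = 0.85), Cited4, Smim1, Steap3, an iron reductase, and Cgn, a tight junction protein (r = 0.82). Mt2 had an r of 0.73 with Mt1 and ranked 18 of 8594 genes. Mtf1 (r = -0.12) and Slc30a1 (r = -0.43) did not share the pattern of Mt1. The genes most like Slc30a1 were Lrrc8a, a subunit of the volume-regulated anion channel (r = 0.89), Tm6sf1, 2900026A02Rik, Dazap2 and Pcdh1, a protocadherin. Sums of 1 lot share a library, so these values describe the 21 sums.

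The other zinc transporters were not used to choose the 4 genes and were tested. As families, Slc30 proteins move zinc out of the cytosol, into vesicles or out of the cell, and Slc39 proteins move it in. Single members need not carry only zinc, and transport was not measured here. UMI counts summed per class and lot were fitted with edgeR's quasi-likelihood test over 14194 genes, and a gene was called at an adjusted p under 0.05. Of 23 such genes besides Slc30a1, 19 had enough counts, and 4 (Slc30a8, Slc39a2, Slc39a5 and Slc39a12) did not.

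In epithelial-like against pre-granulosa-like cells, 4 of the 19 zinc transporters were higher and 4 lower, where 22.7% of all genes tested were higher and 23.9% lower (median log2 fold change 0.04 over the transporters and -0.01 over all genes). Slc39a4, the intestinal zinc importer ZIP4, rose from 0.834, 0.736 and 0.595 CPM in pre-granulosa-like cells to 2.79, 2.12 and 1.93 CPM (log2 fold change 1.63 ± 0.252 SE, adjusted p = 8.72e-06). Slc30a2, which loads zinc into vesicles, fell from 8.52, 6.69 and 7.10 to 3.08, 2.57 and 3.59 CPM (-1.28 ± 0.153, adjusted p = 1.89e-07). Slc30a10 was also called (log2 fold change 2.56, adjusted p = 0.021), but on 8 UMIs against 1, a ratio of 10.9 with an exact interval of 1.46 to 484, and the call was lost without any 1 of the lots, lot 26 (adjusted p = 0.051), lot 29 (0.112) or lot 30 (0.116), and at a clustering resolution of 1.2.

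In stromal-like against pre-granulosa-like cells, 5 zinc transporters were higher and 2 lower, against 25.5% and 26.3% of all genes (medians 0.22 and -0.01). With the lot as a block, 8 transporters were higher and 4 lower, where the block called 9498 of all 14194 genes. Slc30a2 was 5.47-fold lower, at 1.41, 1.43 and 1.53 CPM in stromal-like cells (log2 fold change -2.45 ± 0.176, adjusted p = 1.45e-11). Slc39a8, the importer ZIP8, was at 2.16, 1.30 and 1.69 CPM against 0.541, 0.806 and 0.669 CPM (1.27 ± 0.349, adjusted p = 0.0032), a call that was lost without lot 26 (adjusted p = 0.084). Slc30a10 was called on 7 UMIs against 1 (2.82, adjusted p = 0.012) and lost without lot 29 or lot 30. In epithelial-like against stromal-like cells, 2 were higher and 4 lower, against 16.5% and 17.1% of all genes (medians -0.22 and 0.02). Slc39a4 was 7.04-fold higher (2.82 ± 0.315, adjusted p = 9.07e-08), Slc30a2 was 2.25-fold higher (adjusted p = 1.76e-05), and Slc30a4 was 1.57-fold lower (adjusted p = 0.0043, and 0.055 without lot 30). The shares called among zinc transporters in these 3 comparisons, in the order given, were 42.1%, 36.8% and 31.6%, against 46.6%, 51.8% and 33.6% of all genes.

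Germ-like cells had the largest differences. Against the mean of the 3 large somatic classes, 8 zinc transporters were higher and 6 lower, where 37.0% and 40.5% of all genes were (medians 0.06 and -0.08). Slc30a3, the transporter that fills synaptic vesicles with zinc in neurons, was at 2.66, 1.61 and 2.82 CPM in germ-like cells, from 87 UMIs in all. It had 2 UMIs in pre-granulosa-like, 5 in stromal-like and 5 in epithelial-like cells (log2 fold change 5.54 ± 0.465, adjusted p = 9.31e-10). Slc39a4 was at 4.27, 4.97 and 4.74 CPM in germ-like cells, above all lots of the other classes (2.44 ± 0.211, adjusted p = 1.61e-10). Slc30a2 was also higher, at 12, 14.2 and 13.8 CPM (1.99 ± 0.126, adjusted p = 4.71e-13), and Slc30a7 was 2.02-fold lower (adjusted p = 6.61e-06). Slc30a10 was called on 17 UMIs (3.17 ± 0.548, adjusted p = 9.65e-06). Germ-like cells of lots 26 and 29 also carried red blood cell RNA, with summed markers of 664 and 1789 CPM against 63.4 CPM in lot 30. In red-blood-cell-like cells these markers summed to 492990, 723265 and 368107 CPM in lots 26, 29 and 30. Slc30a3 was lowest and Slc39a4 highest in lot 29. The part of red blood cell RNA in the levels of Slc30a3 and Slc39a4 was not tested.

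In endothelial-like cells, compared in the same way, 2 zinc transporters were higher and 3 lower, against 19.4% and 21.7% of all genes (medians 0.17 and -0.09). Slc39a8 was 7.24-fold higher, at 10.8, 7.11 and 5.72 CPM (log2 fold change 2.86 ± 0.355, adjusted p = 2.31e-07), and Slc39a10 was 1.69-fold higher (adjusted p = 1.19e-06). Slc30a2 was lower, with 5 UMIs in all (-1.93 ± 0.421, adjusted p = 0.00064), as was Slc39a6 (-0.80 ± 0.153, adjusted p = 0.00013). Slc39a8 was also found in red-blood-cell-like cells at 14.9 ± 7.12 CPM. The red blood cell markers summed to 421, 142 and 54.3 CPM in endothelial-like cells of lots 26, 29 and 30. In red-blood-cell-like cells they summed to 492990, 723265 and 368107 CPM. The part of red blood cell RNA in the Slc39a8 level was not tested. So the classes with the highest Slc30a1, endothelial-like and germ-like, had different importers above the somatic level.

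**Figure D5:**
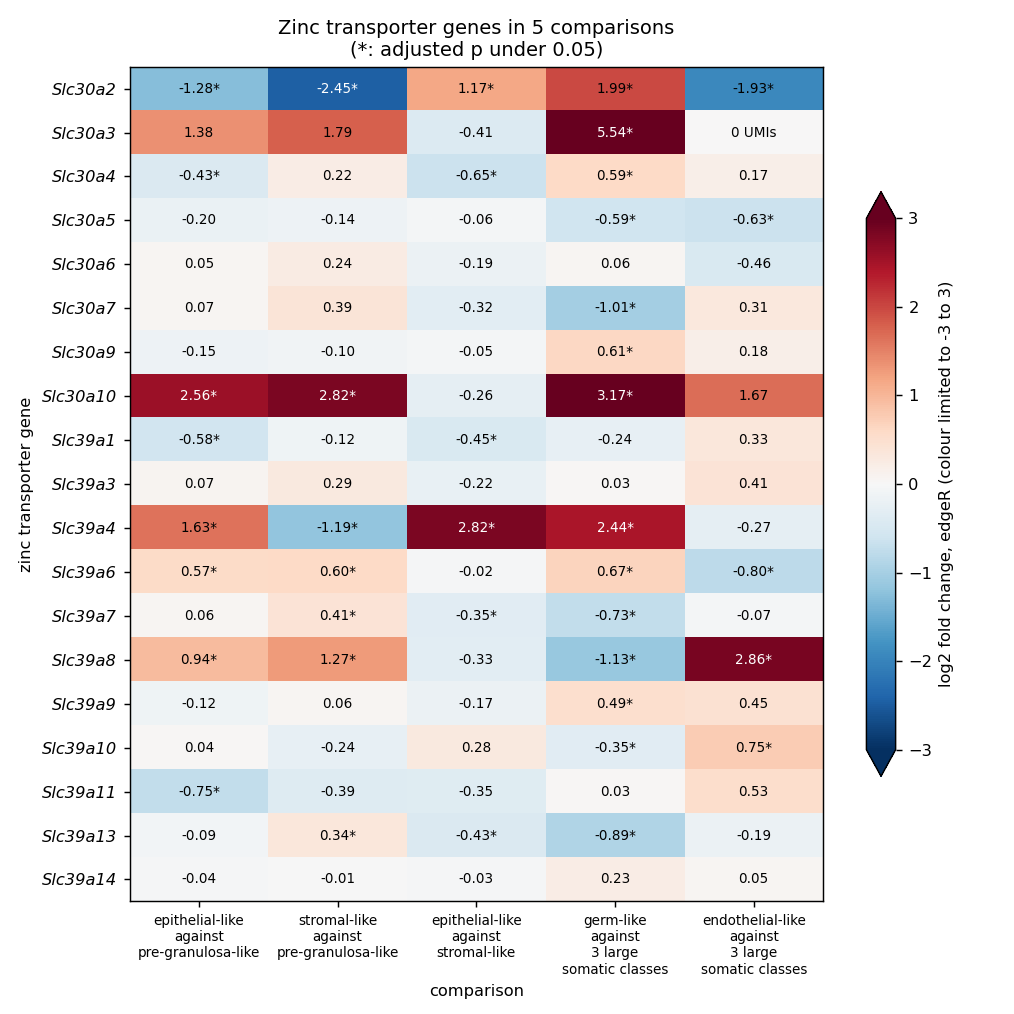
Rows are the 19 zinc transporter genes tested, columns are the 5 comparisons, and each cell gives the log2 fold change from edgeR, with colour from blue (lower) to red (higher) and a star for an adjusted p under 0.05. Slc30a3 had 0 UMIs in endothelial-like cells and is left without a fold there. Slc30a2 is called in all 5 columns, Slc39a4, Slc39a6 and Slc39a8 in 4 each, and the germ-like column holds the largest value (5.54 for Slc30a3).

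Mt3 was tested as the remaining metallothionein with enough counts. It was 5.74-fold lower in epithelial-like than in pre-granulosa-like cells (log2 fold change -2.52 ± 0.263, adjusted p = 1.46e-07) and 9.76-fold lower in stromal-like cells (-3.29 ± 0.285, adjusted p = 6.01e-09). In lots 26, 29 and 30, pre-granulosa-like cells held 40.1, 27.3 and 26.3 CPM of it, epithelial-like cells 6.83, 5.13 and 4.68 CPM, and stromal-like cells 4.18, 3.04 and 3.01 CPM. It was not called in the other 3 comparisons, and with the lot as a block it was higher in epithelial-like than in stromal-like cells and lower in germ-like and endothelial-like cells. Sertoli-like cells held the most, at 824, 679 and 380 CPM. Mt3 was thus high in pre-granulosa-like and not in epithelial-like cells, unlike Mt1 and Mt2. Mt4, known from squamous epithelia, had 16 UMIs in Sertoli-like cells and at most 5 in any other class, too few to test.

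Lists of other metal and stress genes were counted the same way. Copper and iron genes (16 tested) had 1 higher and 8 lower in epithelial-like against pre-granulosa-like cells, and 3 higher and 6 lower in stromal-like cells, with median log2 fold changes of -0.37 and -0.26. The share called was 56.2% in both, against 46.6% and 51.8% of all genes. Steap3 was 5.52-fold lower in stromal-like cells (adjusted p = 1.25e-12), and the iron exporter Slc40a1 was 2.53-fold lower in epithelial-like cells (adjusted p = 1.59e-05). Slc11a2, an iron importer, was lower than in pre-granulosa-like cells in both, by 1.98-fold and 2.30-fold. Oxidative stress genes (15 tested) had 1 higher and 6 lower in epithelial-like cells, and 1 higher and 9 lower in stromal-like cells, with medians of -0.24 and -0.62 (46.7% and 66.7% called). Gstm1, a glutathione transferase, was 4.00-fold and 3.26-fold lower, and the sulfiredoxin Srxn1 was 3.55-fold lower in stromal-like cells. In epithelial-like against stromal-like cells, 2 copper and iron genes were higher and 2 lower, (median 0.03), and 4 oxidative stress genes were higher (median 0.22), among them Gsr, a glutathione reductase (2.87-fold), and Srxn1 (2.64-fold), and 0 lower. At an unadjusted p under 0.05 that count of lower oxidative stress genes was also 0 with edgeR, and DESeq2 called 2. With the lot as a block, 6 oxidative stress genes were higher and 1 lower, where the block called 7482 of all 14194 genes. The shares called without the block were 25% and 26.7%, against 33.6% of all genes.

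Of 8 glucocorticoid response genes tested, 5 were lower in epithelial-like than in pre-granulosa-like cells, where 23.9% of all genes were, among them Sgk1 (3.07-fold, adjusted p = 0.0061, and 0.075 without lot 29) and Errfi1 (2.15-fold). None was higher, by edgeR (0 also at an unadjusted p under 0.05) or by DESeq2 (0). The median of the list was -0.57 (log2 fold change). In stromal-like cells 2 were higher and 2 lower (median -0.20), against 25.5% and 26.3% of all genes, and the receptor gene Nr3c1 was 2.49-fold higher (adjusted p = 1.45e-09) and Errfi1 2.47-fold lower. Against stromal-like cells, epithelial-like cells had 1 higher and 3 lower (median -0.28), against 16.5% and 17.1% of all genes, with 3.92-fold less Nr3c1 (adjusted p = 4.85e-12).

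Heat shock and immediate early genes (16 tested) had 0 called by edgeR in epithelial-like against pre-granulosa-like cells, with 3 at an unadjusted p under 0.05, and DESeq2 called 1. The median log2 fold change was -0.07. With the lot as a block, 3 were higher and 6 lower, where the block called 8916 of all 14194 genes. In stromal-like cells (median -0.11) 1 was called, Hspb1 (4.36-fold lower than in pre-granulosa-like cells, adjusted p = 0.00036). There 3 were higher and 7 lower with the block, which called 9498 of all 14194 genes. In epithelial-like against stromal-like cells (median 0.21) 3 were higher, among them Hspb1 (2.23-fold, adjusted p = 0.034) and Hsp90aa1 (1.78-fold, adjusted p = 0.038), both lost without lot 26 or lot 29. With the block, 6 were higher and 4 lower, where it called 7482 of all 14194 genes. The shares called without the block in these 3 comparisons were 0%, 6.25% and 18.8%, against 46.6%, 51.8% and 33.6% of all genes. These genes were far apart between lots, as Hspa1a and Fos showed.

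In germ-like against the 3 large somatic classes, 80% of the listed genes were called, near the 77.5% of all genes. Copper and iron genes had 6 higher and 7 lower (median -0.21), oxidative stress genes 4 and 9 (median -1.03), and glucocorticoid response genes 2 and 4 (median -0.82). Gclc, which makes the first step of glutathione synthesis, was 11-fold higher (adjusted p = 1.23e-18), the copper transporter Atp7b was 7.34-fold higher, and the cystine importer Slc7a11 was 15.4-fold lower. Of 16 heat shock and immediate early genes, 2 were higher and 12 lower (median log2 fold change -2.35, against -0.08 over all genes). Among these were Jun (-2.90 ± 0.597, adjusted p = 0.00041) and Btg2 (-2.92 ± 0.728, adjusted p = 0.0020, and 0.064 without lot 29). In endothelial-like cells copper and iron genes had 3 higher and 3 lower (median -0.16), oxidative stress genes 2 and 5 (median 0.11), and glucocorticoid response genes 3 and 2 (median -0.54). The shares called were 37.5%, 46.7% and 62.5%, against 41.1% of all genes. Sgk1 was 7.46-fold higher (adjusted p = 8.52e-06), the copper transporter Slc31a2 2.54-fold higher and Nqo1, a quinone reductase, 5.12-fold lower. None of the 16 heat shock and immediate early genes (median -0.78) was called there by edgeR (0, with 2 at an unadjusted p under 0.05) or by DESeq2 (0). With the lot as a block, 1 of them was higher and 12 lower, where the block called 6859 of all 14194 genes.

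Over all 6 lists, 30 of 75 genes tested were called in epithelial-like against pre-granulosa-like cells, 32 in stromal-like against pre-granulosa-like, 21 in epithelial-like against stromal-like, 60 in germ-like and 23 in endothelial-like cells. These are 40%, 42.7%, 28%, 80% and 30.7% of the listed genes, against 46.6%, 51.8%, 33.6%, 77.5% and 41.1% of all genes tested. In endothelial-like cells 10 were higher and 13 lower, which became 13 and 11 with DESeq2's size factors in edgeR. With the lot as a block, the counts were 55 in stromal-like against pre-granulosa-like, 39 in epithelial-like against stromal-like and 46 in endothelial-like cells, and the genes called without the block were all among them. Of the 14194 genes tested, the block called 9498, 7482 and 6859 in these 3 comparisons. The share of the 75 listed genes called was then above that of all genes in stromal-like against pre-granulosa-like and in endothelial-like cells. It was slightly below that of all genes in epithelial-like against stromal-like cells. Without the block it was below in all 3. Without lot 26 the endothelial-like count was 15.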

How the data were processed

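The samples were 3 lots of fetal ovarian somatic cells, profiled by 10X Genomics scRNA-seq. The authors deposited UMI counts per gene and cell, without normalization. Barcodes were extracted with UMI-tools, STAR 2.7 placed the reads on GRCm38, and featureCounts 2.0.1 assigned those with a unique position to genes. Reads shared by paralogs were therefore lost, and the annotation release is not given in the sources used here. Total UMIs were 126680758, 87494974 and 141920060 in lots 26, 29 and 30. Intervals cover counting error only.

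Kept cells were log-normalized to 10000 and clustered in Seurat 5.3.0 (R 4.3.3; 2000 variable genes less 27 listed genes, 50 principal components, resolution 0.8). Clusters were named from 12 marker lists by mean log2(CPM + 1) above the median cluster, with a score of at least 1 and a lead of 0.25. Doublets called by Scrublet in scanpy 1.11.5 (566, 347 and 635 in the 3 lots) were kept, since the study's methods describe no such step. UMIs were summed per class and lot. Named classes with at least 10 cells in every lot (21 sums, 7 classes) were tested with the quasi-likelihood test of edgeR 4.0.16 (filterByExpr, TMM factors, Benjamini-Hochberg over 14194 genes, threshold 0.05). DESeq2 1.42.0 served as an alternative. The script was tested on simulated data. The lots are separate pools, but the 7 classes of a lot share 1 pool. The main fit treats the 21 sums as independent, so its p-values leave out this pairing.

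The members and lists were chosen with earlier results of these data known. Genes named are the 4 members, per comparison the 3 called zinc transporters and the 2 called genes of each other list with the largest absolute fold, the 5 genes most like Mt1 and Slc30a1 (20 CPM or more in a class), class markers and Hba-a1. Slc30a2 and Slc30a7 in germ-like cells, Slc39a10 in endothelial-like cells, genes that lead clusters, Hspa1a, Fos and genes above Mt1 in overdispersion were added after their values were seen. All sums of 1 lot come from 1 pool. Deviations from class means correlated between sums of a lot at 0.195 to 0.664 in 30 pairs, so fits with the lot as a block are given where a count moved by over 1.5 times. Alternatives were other cell filters, clustering, naming, normalization and tests, removal of doublets, and each lot left out.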

Additional observations from a re-analysis of the deposited data

How the results depend on the processing

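The span of each member (log2 of the highest over the lowest mean CPM among the 5 largest classes) and the counts of listed genes called were recomputed under each alternative. Mt1 spanned 3.16, and 3.65 with doublets removed. Its highest mean was in pre-granulosa-like cells, but in epithelial-like cells at a clustering resolution of 1.2 and without lot 29. Mt2 spanned 3.71, and 3.295 with no upper limit on genes per cell, 3.28 with 30 principal components, 3.31 with the held-out genes put back, 4.22 with doublets removed, 2.56 with classes named from the study's genes only and 4.07 as the mean over cells of the share per cell. The highest Mt2 mean was in epithelial-like cells, but in pre-granulosa-like cells with classes named from the study's genes only. Mtf1 (0.82) and Slc30a1 (1.89) moved by less than 1 SD over lots under all alternatives. With each lot left out in turn, the spans ran from 2.99 to 3.32 for Mt1, 3.51 to 3.87 for Mt2, 0.66 to 0.93 for Mtf1 and 1.61 to 2.14 for Slc30a1, and the counts of calls from 21 to 27 (epithelial-like against pre-granulosa-like), 27 to 31 (stromal-like against pre-granulosa-like), 16 to 19 (epithelial-like against stromal-like), 52 to 58 (germ-like) and 15 to 28 (endothelial-like). The lot as a replicate block gave 45, 55, 39, 67 and 46 calls in the same order, where the fit without it gave 30, 32, 21, 60 and 23. Of 55 counts of calls under alternatives, 51 were within 1.5 times the main count. Of 566 values of named listed genes, 542 kept their call, 24 lost it and 0 changed direction. DESeq2's size factors in edgeR moved the median log2 fold change of all genes in the germ-like comparison from -0.08 to 0.05. All 20 shares of cells with a UMI were lower after thinning to 4000 UMIs. Depth limited the low transporters: Slc30a8 and Slc39a12 had 5 UMIs each in the sums and were not tested.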
